A study of Homo sapiens with 4 samples.

Results

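The 10 genes described here are the melanocyte lineage and pigment genes MITF, SOX10, KIT, TYR, TYRP1, DCT, PMEL, MLANA, OCA2 and TRPM1. They were taken by name, without a rule on any measured value, from the 20033 protein-coding genes on chromosomes 1 to 22, X and Y. Earlier results of these data were known when they were chosen. A peak was counted for a gene when it overlapped, by at least 1 bp, the gene body of the GENCODE annotation (GRCh38) extended by 3 kb on each side. By this rule the genes held 8 peaks in OMM2.3 and 35 peaks in 92.1.

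The peaks came from chromatin immunoprecipitation followed by sequencing (ChIP-seq) for A3B (APOBEC3B), a cytidine deaminase that acts on single-stranded DNA and prefers a cytosine preceded by a thymine. OMM2.3 and 92.1 are established human lines of uveal melanoma, the melanoma of the pigmented layer of the eye. Each line had 1 library made with an A3B antibody and 1 made with normal rabbit IgG, and neither line carried a labelled treatment or genetic change. Peaks of each A3B library had been called against the IgG library of the same line, and the 2 resulting peak lists were analysed. With 1 library per group, differences between genes or lines have no replicate check and no test was made. Intervals given with counts and shares cover counting error only. The lists hold no expression values, so the melanocytic identity of the lines could not be checked against these markers, and a peak says nothing about the level of the gene.

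Melanocytes arise from the neural crest under SOX10 and MITF, the latter a basic helix-loop-helix leucine zipper factor that switches on most pigment genes from a melanocyte promoter inside its gene. The receptor tyrosine kinase KIT drives their migration and survival. Pigment is made in the melanosome, where TYR carries out the rate-limiting oxidation of tyrosine, and DCT and TYRP1 act on later intermediates of eumelanin. PMEL forms the fibrils on which pigment is laid down, MLANA takes part in melanosome maturation, OCA2 is a melanosomal membrane transporter, and TRPM1 is a cation channel whose gene is a classical MITF target. In uveal melanoma these genes mark the melanocytic origin of the tumour.

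The whole lists held 56167 peaks in OMM2.3 and 136678 in 92.1, with 55486 and 135327 of them on the autosomes and sex chromosomes. Fragments here are the sequenced DNA pieces stacked at a peak's highest point (its summit). Their number was recovered from the deposited values as the whole number that gave the deposited p most closely. The median peak of the lists stood on 6 fragments in OMM2.3 and 4 in 92.1. Of all protein-coding genes, 50.5% had at least 1 peak in OMM2.3 and 73.6% in 92.1, and 43.7% had one in both lines.

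The sequence around a summit shows what kind of DNA lay under these peaks. Printed are windows of the GRCh38 reference, plus strand, that reach 100 bp to either side of the summit, with capitals marking TC and its complement GA. The first is the member peak with the lowest p of OMM2.3, in DCT (chr13:94442093-94442293). It carried 32 TC or GA dinucleotides.
DCT, OMM2.3: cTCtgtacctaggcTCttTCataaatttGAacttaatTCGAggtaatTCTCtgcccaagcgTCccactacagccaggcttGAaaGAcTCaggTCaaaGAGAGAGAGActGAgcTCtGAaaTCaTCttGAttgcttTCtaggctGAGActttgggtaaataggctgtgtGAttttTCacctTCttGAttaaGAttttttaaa
The next pair are the SOX10 windows of OMM2.3 (chr22:37974930-37975130) and 92.1 (chr22:37975421-37975621). The former is the member summit nearest to a canonical start site in OMM2.3, and the latter, chosen after its values were seen, belongs to the 92.1 peak closest to it. The windows carried 22 and 30 such dinucleotides.
SOX10, OMM2.3: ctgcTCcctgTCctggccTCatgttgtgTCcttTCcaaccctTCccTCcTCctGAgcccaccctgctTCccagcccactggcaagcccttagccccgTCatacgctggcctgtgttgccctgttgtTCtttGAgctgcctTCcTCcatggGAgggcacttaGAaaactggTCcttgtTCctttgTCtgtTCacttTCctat
SOX10, 92.1: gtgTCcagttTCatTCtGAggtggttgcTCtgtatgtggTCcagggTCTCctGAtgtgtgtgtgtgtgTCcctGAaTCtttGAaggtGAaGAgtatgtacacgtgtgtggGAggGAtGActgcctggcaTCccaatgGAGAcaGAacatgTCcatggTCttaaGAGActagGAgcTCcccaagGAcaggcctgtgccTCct
The last, from 92.1, is the MITF summit nearest to the melanocyte promoter (chr3:69932571-69932771), chosen after its values were seen. It carried 22 TC or GA dinucleotides.
MITF, 92.1: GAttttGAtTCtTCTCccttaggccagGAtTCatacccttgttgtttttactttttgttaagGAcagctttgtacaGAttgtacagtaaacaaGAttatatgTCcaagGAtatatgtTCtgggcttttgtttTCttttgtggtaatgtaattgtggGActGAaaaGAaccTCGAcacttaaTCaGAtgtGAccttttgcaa

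In OMM2.3, 4 of the 10 genes had a peak, namely SOX10, TYR, DCT and OCA2, a share of 40% with an exact 95% binomial interval of 12.2 to 73.8. In 92.1, 8 of 10 had one, a share of 80% (44.4 to 97.5), and TYRP1 and MLANA had none. The shares lay near the 50.5% and 73.6% of all protein-coding genes. The 10 genes were longer, however, with a median extended length of 69.2 kb beside 33.5 kb for all genes. A longer gene has more room for a peak, so these shares do not compare like genes. Genes with a peak in both lines were 4 of 10, beside 43.7% of all genes, and the 4 remaining genes with a peak had it in 92.1 alone. The peak number was higher in 92.1 for 7 genes and equal in 3. Over the 10 genes, 92.1 had 4.38 times the peaks of OMM2.3 (exact conditional interval 1.99 to 10.9), and the whole lists differed 2.44-fold.

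Gene length and the density of peaks along a chromosome set how many peaks a gene will hold, so each count was compared with a local expectation. This was the density of summits within 1 Mb on each side of the extended gene body, outside assembly gaps, multiplied by the length over which a peak would be counted. Ratio intervals took this expected number as fixed and left out the counting error of the flanks, except where stated. In OMM2.3 the 8 peaks (95% Poisson interval 3.45 to 15.8) stood against 14.3 expected, a ratio of 0.558 (0.241 to 1.10). In 92.1 the 35 peaks (24.4 to 48.7) stood against 34.2 expected, a ratio of 1.02 (0.714 to 1.42). Over all protein-coding genes the ratio was 0.956 in OMM2.3 and 1.01 in 92.1. The median ratio of single genes was 0 for the 10 genes and 0.297 for all genes in OMM2.3, and 0.976 and 0.910 in 92.1. The OMM2.3 ratio rested on MITF. Without that gene, a choice made after the values were seen, the ratio was 1.07 (0.460 to 2.10) in OMM2.3 and 0.985 (0.643 to 1.44) in 92.1, and 92.1 had 3.25 times the peaks of OMM2.3.

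**Figure D1:**
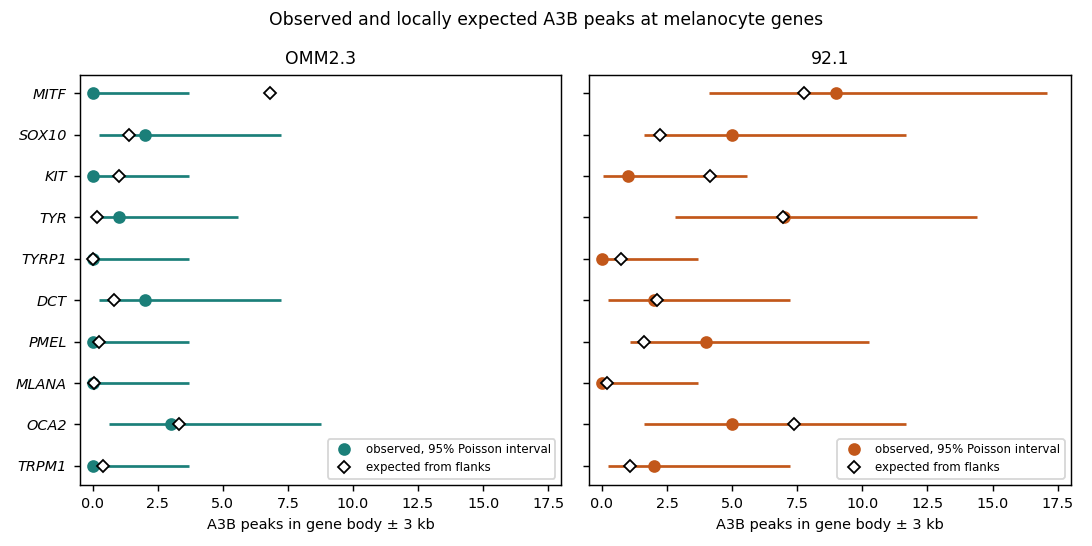
Number of A3B peaks in each gene body with 3 kb on each side (x axis, peaks) for OMM2.3 (left) and 92.1 (right), as filled points with 95% Poisson intervals, beside the number expected from the flanking 1 Mb on each side (open diamonds). The MITF diamond of OMM2.3, at 6.82, is the one that lies outside its interval.

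Among the lineage regulators, MITF differed most between its neighbourhood and itself in OMM2.3. MITF (ENSG00000187098.18, chr3:69739456-69968336, plus strand) is 229 kb long and held 0 peaks in OMM2.3 and 9 in 92.1. The flanks of MITF were covered in both lines, with 58 summits in OMM2.3, 35 upstream and 23 downstream, and 66 in 92.1. The expected numbers were 6.82 and 7.76. The ratio in OMM2.3 was therefore 0 with an upper bound of 0.541, or 0.558 when the counting error of the flanks was included. The ratio in 92.1 was 1.16 (0.530 to 2.2), so the interval held 1, and it fell to 0.963 at a p of at most 0.01. A count of 0 gives an interval below 1 only where more than 3.69 peaks are expected, and MITF was the one member in OMM2.3 for which this was so. In OMM2.3, 5.43% of the 1951 protein-coding genes with such an expectation had an interval below 1, and 1.49%, or 29 genes, had 0 peaks. In 92.1 the interval was below 1 for 3.49% of 5097 such genes and 0.863% had 0 peaks, none of them a member.

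The empty stretch at MITF reached beyond the gene. In OMM2.3 the nearest summits lay 14.1 kb upstream and 30.3 kb downstream of the extended body, 279 kb from each other. On chromosome 3, where the median distance between neighbouring summits was 25.1 kb, 18 of 5079 distances (0.354%) were at least as long, and these covered 3.10% of the chromosome. A long gene without a summit must lie in such a distance, so this share partly restates the count of 0. A long empty stretch was also not particular to MITF. In OMM2.3 it was longer at TRPM1 (1659.513 kb), TYRP1 (1558.538 kb) and MLANA (793.741 kb), whose flanks held 5, 1 and 5 summits. It was shorter at KIT (174.401 kb) and PMEL (123.63 kb). The GC content was 38.3% in the MITF body and 38.8% in its flanks. In 92.1 the 9 peaks were spread along the gene, all in introns of the canonical transcript, with 6 in intron 1, 2 in intron 2 and 1 in intron 9. Their −log10 p ranged from 1.40 to 3.52 on 3 to 5 fragments. The highest, in intron 1 at chr3:69836891-69837113, had a fold enrichment of 3.20. MITF has 19 annotated transcription start sites in 6 groups, and no 92.1 summit lay within 3 kb of one. The nearest lay 3.92 kb upstream of the last group (chr3:69936587-69936829), which includes the melanocyte start, in the window printed above. The nearest OMM2.3 summit to that group was 65.1 kb downstream.

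**Figure D2:**
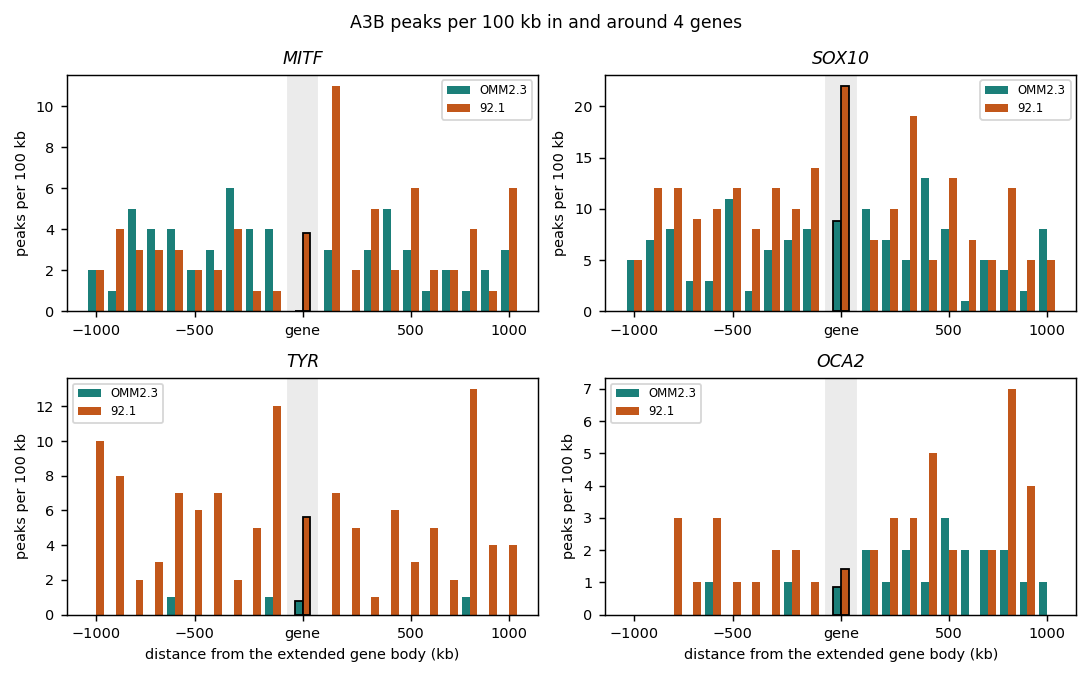
A3B peak summits per 100 kb (y axis) in bins out to 1 Mb on each side of MITF, SOX10, TYR and OCA2, with the density in the extended gene body as outlined bars on grey. OMM2.3 is at 0 in MITF between flanks of 35 and 23 summits, whereas 92.1 continues through the gene. At TYR the OMM2.3 flanks hold 3 summits in all.

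SOX10, the neural crest factor that acts upstream of MITF, lay in the densest neighbourhood of the 10 genes in both lines, with 61.5 flanking summits per Mb in OMM2.3 and 96 in 92.1. SOX10 (ENSG00000100146.20, chr22:37970686-37987422, minus strand) held 2 peaks in OMM2.3 against 1.42 expected and 5 in 92.1 against 2.21. The ratios were 1.41 (0.171 to 5.10) and 2.26 (0.734 to 5.28), with 1 inside both intervals, and over 9 alternatives they ranged up to 2.23 and 3.68. The highest OMM2.3 peak (chr22:37973358-37973582, −log10 p 2.78) lay in exon 4 and the other (chr22:37974913-37975137, 2.68) in intron 3. Both stood on 7 fragments, the most of any member peak of either line. The highest 92.1 peak (chr22:37985247-37985469, −log10 p 3.19, 6 fragments) had its summit 834 bp upstream of the canonical start and 337 bp downstream of an alternative one. Of the 5 peaks of 92.1, 4 lay within 3 kb of a SOX10 start site, the others being chr22:37975342-37975564 (−log10 p 2.33), chr22:37977761-37977983 (2.43) and chr22:37990239-37990748 (2.05). SOX10 has 9 annotated start sites in a body of 16.7 kb, so lying within 3 kb of one says little. Within 3 kb of the canonical start lay 1 of the 5. All 7 SOX10 peaks also overlapped POLR2F, which is annotated on the opposite strand, so they cannot be given to 1 of the genes.

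KIT (ENSG00000157404.17, chr4:54657267-54740783) held 0 peaks in OMM2.3 against 1.03 expected. In 92.1 it held 1 peak against 4.13 expected, a ratio of 0.242 whose interval of 0.00613 to 1.35 included 1. That peak (chr4:54675182-54675404) was in intron 1, 17.3 kb from the canonical start, with a −log10 p of 1.91 on 3 fragments. KIT thus had few peaks in both lines, at numbers too low to be set apart from the local density.

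Among the pigment enzymes, TYR held most of the peaks, and most of them in 92.1. TYR (ENSG00000077498.9, chr11:89177875-89295759) held 1 peak in OMM2.3 and 7 in 92.1, and the neighbourhood differed in the same direction, with 3 and 112 flanking summits. The 92.1 number equalled its expectation, 7 against 6.95, a ratio of 1.01 (0.405 to 2.07). The OMM2.3 ratio of 5.37 rested on 1 peak and 3 flanking summits, with an interval of 0.136 to 29.9. It was 0.613 with the density of the whole chromosome, 1.05 with that of like GC content, 16.1 without repeated sequence and 0 at a p of at most 0.01, so it gave no direction. The 92.1 peak in intron 2 had the lowest p of all member peaks, with a −log10 p of 4.43, a fold enrichment of 3.73 and 6 fragments. It ranked at percentile 97.8 of its list by −log10 p. Its −log10 q was 0.0782, and the other 42 member peaks of both lines had a q of 1. The OMM2.3 peak (chr11:89206271-89206495) was also in intron 2, with a −log10 p of 1.65 on 4 fragments.

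DCT (ENSG00000080166.16, chr13:94436811-94479682, minus strand) was the gene with 2 peaks in each line. Against expectations of 0.811 in OMM2.3 and 2.11 in 92.1, the ratios were 2.47 (0.299 to 8.91) and 0.946 (0.115 to 3.42), and the latter lay above 1 in 3 of 9 alternatives. The OMM2.3 peak in intron 7 (chr13:94442081-94442305) was the highest member peak of that line, with a −log10 p of 3.11, a fold enrichment of 3.02 and 6 fragments, at percentile 77.2 of the list. The other OMM2.3 peak (chr13:94469858-94470082) lay in intron 1, with its summit 1104 bp upstream of an alternative start site, in repeated sequence. The highest 92.1 peak (chr13:94452485-94452741) lay in intron 6, with a −log10 p of 3.20 on 5 fragments. TYRP1 (ENSG00000107165.13, chr9:12685439-12710285) held 0 peaks in both lines. Its expected numbers were 0.0156 and 0.732, so a count of 0 was close to the local density.

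PMEL and MLANA are melanosome proteins, and both ratios had 1 inside their intervals. PMEL (ENSG00000185664.15, chr12:55954105-55973317, minus strand) held 0 peaks in OMM2.3 against 0.230 expected and 4 in 92.1 against 1.61, a ratio of 2.49 (0.678 to 6.37) (9 alternatives, 1.67 to 3.03). All 4 lay within 3 kb of a PMEL start site, and 2 of them covered one, the only member peaks of either line to do so. PMEL has 15 annotated start sites in a body of 19.2 kb, so lying within 3 kb of one says little. Within 3 kb of the canonical start lay 2 of the 4. The highest (chr12:55966004-55966411, −log10 p 3.52, 5 fragments) had its summit 153 bp upstream of the canonical start. The peak beside it (chr12:55966687-55966909, 1.87, 3 fragments) also overlapped CDK2, which runs in the opposite direction, and a long noncoding RNA. A further peak (chr12:55960947-55961169, 1.91, 3 fragments) lay in intron 3, in repeated sequence. The most distant from the canonical start (chr12:55975244-55975674, 2.55) overlapped RAB5B, and lay with both peaks at the start site within 3 kb of the CDK2 gene body. Thus 3 of the 4 could not be given to PMEL alone. In OMM2.3 an extension of 10 kb took in a peak and moved the ratio from 0 to 2.98. MLANA (ENSG00000120215.10, chr9:5890889-5910606) held 0 peaks in both lines against 0.0650 and 0.208 expected.

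OCA2 (ENSG00000104044.16, chr15:27754875-28099315, minus strand), at 344 kb the longest of the 10 genes, held 3 peaks in OMM2.3 and 5 in 92.1. Expected numbers were 3.33 and 7.37, and the ratios of 0.900 (0.186 to 2.63) and 0.679 (0.220 to 1.58) had 1 inside their intervals. The OMM2.3 ratio was 0.356 at a p of at most 0.01 and without repeated sequence, and 1.04 with flanks of 2 Mb. All 8 OCA2 peaks were in introns, and the summit closest to the canonical start was 114 kb from it. The highest OMM2.3 peak (chr15:27985068-27985292) was in intron 12 with a −log10 p of 2.34. In 92.1 the peaks in introns 16 and 18 shared the highest −log10 p of 3.52. In OMM2.3, 2 of the 3 OCA2 peaks lay in repeated sequence. TRPM1 (ENSG00000134160.16, chr15:31001065-31161160, minus strand), on the same chromosome, held 0 peaks in OMM2.3 against 0.416 expected and 2 in 92.1 against 1.08, a ratio of 1.85 (0.224 to 6.68). Its direction turned with the density used, to 0.448 with that of the whole chromosome and 0.437 with that of like GC content, and it was 4.01 without repeated sequence. Both stood on 5 fragments with a −log10 p of 3.52. One had its summit within 3 kb upstream of the canonical start, inside the longer gene body, and the other (chr15:31025719-31026043) lay in intron 27.

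**Figure D3:**
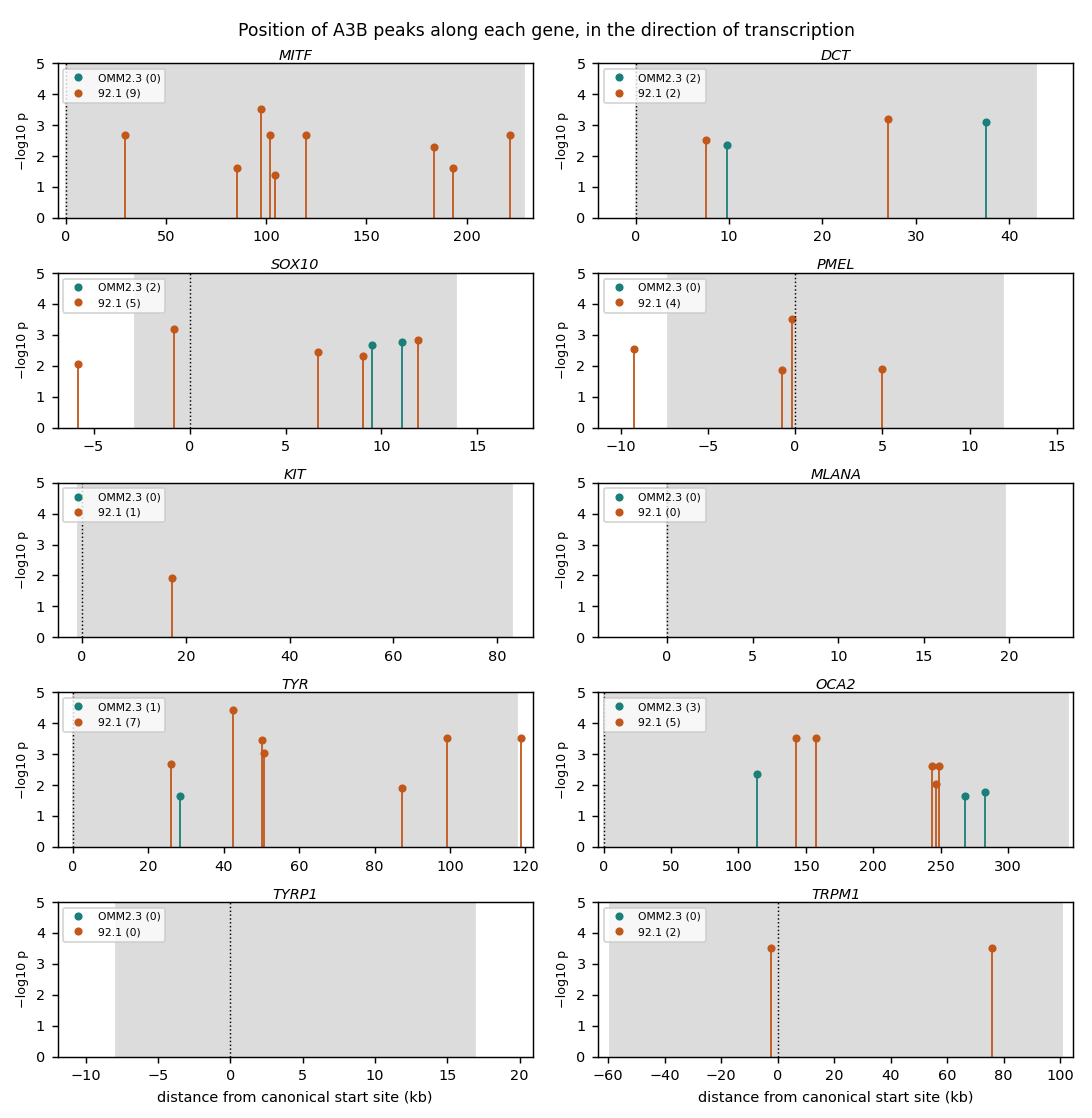
Peak summits along each gene (x axis, kb from the canonical start site in the direction of transcription, grey for the gene body) with the deposited −log10 p of the peak (y axis), and the number of peaks per line in brackets. The peaks of OMM2.3 and 92.1 stand at different positions in SOX10, TYR, DCT and OCA2, and 2 of the 4 PMEL peaks stand next to the start site.

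The lines shared no member peak. None of the 8 OMM2.3 peaks (0%, exact binomial upper limit 36.9%) overlapped any of the 35 of 92.1 (0%, upper limit 10.0%). Over the whole lists, 3.62% of the OMM2.3 peaks and 1.48% of the 92.1 peaks overlapped a peak of the other line, shares that lie below these limits. The closest were the SOX10 peaks printed above, 204 bp apart, and the other SOX10 peak of OMM2.3, 612 bp from a 92.1 peak. In DCT and TYR the smallest distances were 1924 and 2219 bp, and in OCA2 all exceeded 18 kb.

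Start sites were examined next. Within 3 kb of a start site, 2 of the 10 genes had a peak in OMM2.3, SOX10 with a summit 3001 bp downstream and DCT, a share of 20% (2.52 to 55.6), where 26.9% of all protein-coding genes had one. In 92.1 the genes were SOX10, PMEL and TRPM1, 3 of 10 or 30% (6.67 to 65.2), where 51% of all genes had one. Both intervals held the share of all genes. Of the member peaks, 7 of 8 in OMM2.3 (87.5%, exact interval 47.3 to 99.7) and 27 of 35 in 92.1 (77.1%, 59.9 to 89.6) had their summit in an intron of the canonical transcript. The intron share of all peaks was not counted, so these shares do not set the member peaks apart. RefSeq promoter windows (250 bp before to 50 bp after a start, GRCh38) were matched for 8 members, with 12 windows. PMEL and SOX10, each with 2 peaks of 92.1 within 1 kb of a start site, had no entry. No peak of either line overlapped the 12 windows, and over all 35116 windows 1.10% were overlapped in OMM2.3 and 4.14% in 92.1.

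The member peaks stood on few fragments, as did the lists. In OMM2.3 they stood on 4 to 7 fragments (median 5.5, and 6 over all peaks), and in 92.1 on 3 to 6 (median 4 in both). No member peak reached 8 fragments, with upper limits of 36.9% and 10.0%, which hold the 11.2% of all OMM2.3 peaks and 1.11% of all 92.1 peaks that did. For 5 of the 8 OMM2.3 peaks (62.5%, 24.5 to 91.5) and 17 of the 35 of 92.1 (48.6%, 31.4 to 66.0) the background was at its lowest value. That value was 1.05 in OMM2.3, on a scale where 1 fragment counts 0.867, and 0.877 in 92.1, where it counts 1. At it the local IgG signal added nothing to the genome-wide mean. Over all peaks these shares were 35.3% and 39.5%. The shortest width on the list was found in 7 of 8 (87.5%, 47.3 to 99.7) and 18 of 35 (51.4%, 34.0 to 68.6) member peaks. It was found in 39.6% and 46.8% of all peaks, and the former lies below the OMM2.3 interval. No member peak passed a threshold of 0.05 on q or of 1e-05 on p. Few peaks of the lists did. Of 55486 OMM2.3 peaks, 235 passed on q and 459 on p, and of 135327 in 92.1, 205 and 1155. With so few passing, none among the member peaks does not set them apart from the lists.

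**Figure D4:**
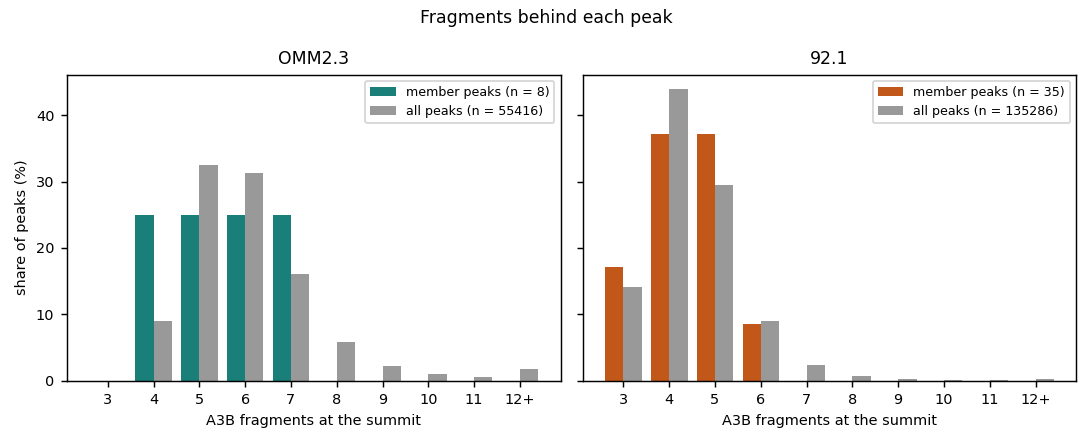
Share of peaks (y axis, %) by the number of A3B fragments at the summit (x axis) for the member peaks, 8 in OMM2.3 and 35 in 92.1, and for all peaks with a recovered number in grey. Most peaks of the members and of the lists lie between 4 and 6 fragments, and the member peaks are too few to show the thin upper end of the lists.

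In base composition the member windows varied widely. Their mean GC content was 50.2% ± 12.9 (SD over 8 peaks) in OMM2.3 and 44.9% ± 11.2 (35 peaks) in 92.1, and the means of all peaks were 46.2% and 42.3%. SOX10 windows were at the high end, up to 68.7%, and a TYR window of OMM2.3 was lowest in that line at 24.9%. TC and GA, the dinucleotides of the A3B target context, numbered 23.0 per window in OMM2.3 and 24.7 in 92.1, and 24.8 and 24.2 over all peaks. The 32 of the DCT window printed above were the most in OMM2.3, and the most in 92.1 were 34, in a SOX10 window among others. Windows in which at least 50% of the 32-base words occur elsewhere in the genome made up 3 of 8 member peaks in OMM2.3 (37.5%, 8.52 to 75.5) and 5 of 35 in 92.1 (14.3%, 4.81 to 30.3). In the flanks of the genes they were 20.8% and 17.8%.

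Letters bound by lineage factors were counted on both strands of these windows of 100 bp to either side of the summit. CATGTG, an E-box that MITF binds, was in 0 of 8 windows of OMM2.3 and 4 of 35 (11.4%) of 92.1, where 12.9% and 12.8% of all peak windows held it. CACGTG was in 1 of 8 and 1 of 35, with 2.46% and 2.06% over all peaks. TCATGTG, which contains CATGTG, was in 1 window, in OCA2 of 92.1. ACAAAG, bound by SOX factors, was in 2 of 8 (25%) and 8 of 35 (22.9%), beside 15.8% and 17.0%. TGACGTCA, the CREB element, was in none. These are counts of letters, not of bound sites. The CACGTG windows were in OCA2 of OMM2.3 and SOX10 of 92.1, the latter printed above.

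A wider panel of 46 further genes of the lineage and of melanosomes, also chosen with earlier results of these data known, was counted in the same way. At least 1 peak was found in 28 genes in OMM2.3 (60.9%) and 36 in 92.1 (78.3%), with 77 and 225 peaks. Of all protein-coding genes, 50.5% and 73.6% had one. The 225 include 3 peaks of the panel gene CDK2 that were also counted for PMEL above. The observed to expected ratio was 1.14 (0.896 to 1.42) in OMM2.3 and 1.25 (1.09 to 1.43) in 92.1, and the median of the single ratios was 0.630 and 1.19. An interval above 1 was found for 4 of the 46 genes in OMM2.3 and 2 of the 46 in 92.1, where 1.64% and 2.52% of all protein-coding genes had one. The panel genes were longer, with a median extended length of 49.8 kb beside 33.5 kb for all genes. Neither these shares nor those of genes with a peak therefore compare like genes. An interval below 1 was found for 1 gene in OMM2.3 and none in 92.1, beside 0.531% and 0.89%. None of the 10 members had an interval above 1.

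SLC24A4, a potassium-dependent sodium and calcium exchanger associated with pigmentation, was above its local density in both lines, with 10 peaks against 3.98 in OMM2.3, a ratio of 2.51 (1.20 to 4.62), and 14 against 5.00 in 92.1, a ratio of 2.80 (1.53 to 4.70). PAX3, a neural crest factor that activates MITF, held 10 peaks in 92.1 against 3.53, a ratio of 2.83 (1.36 to 5.21), and 1 in OMM2.3 against 1.05. ASIP, the antagonist of the melanocortin receptor, held 10 in OMM2.3 against 3.32, a ratio of 3.01 (1.44 to 5.53), and 3 in 92.1 against 5.96. MYO5A, the motor that moves melanosomes, held 7 in OMM2.3 against 2.74, and its interval of 1.03 to 5.27 widened to 0.930 to 6.12 with the counting error of the flanks. MCAM, an adhesion molecule, passed on 1 peak in OMM2.3 with 1 flanking summit, too few to read. LYST, a regulator of lysosome-related organelles, was the gene below its density, with 2 peaks in OMM2.3 against 7.90, a ratio of 0.253 (0.0307 to 0.915), and 23 in 92.1 against 24.4.

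By role, the 7 melanosome protein and transporter genes of the panel had a ratio of 1.97 (1.20 to 3.04) in OMM2.3 and 1.83 (1.26 to 2.56) in 92.1, the one group with an interval above 1 in both lines. This rested on SLC24A4, which held 10 of the 20 peaks in OMM2.3 and 14 of the 33 in 92.1. Without it, a choice made after the values were seen, the ratios were 1.62 (0.778 to 2.98) and 1.45 (0.875 to 2.27), with 1 inside both intervals. The 14 melanosome biogenesis genes had a ratio of 0.574 (0.328 to 0.932) in OMM2.3 and 1.21 (0.989 to 1.46) in 92.1. The OMM2.3 value rested on LYST, without which it was 0.701 (0.383 to 1.18). In 92.1 the value without LYST was 1.31 (1.04 to 1.62). Lineage factors stood at 1.31 and 1.32, and receptors and ligands at 1.64 and 0.865, with 1 inside all of these intervals. No interval of the whole panel or of a role includes the counting error of the flanks, so bounds near 1 are not firm.

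**Figure D5:**
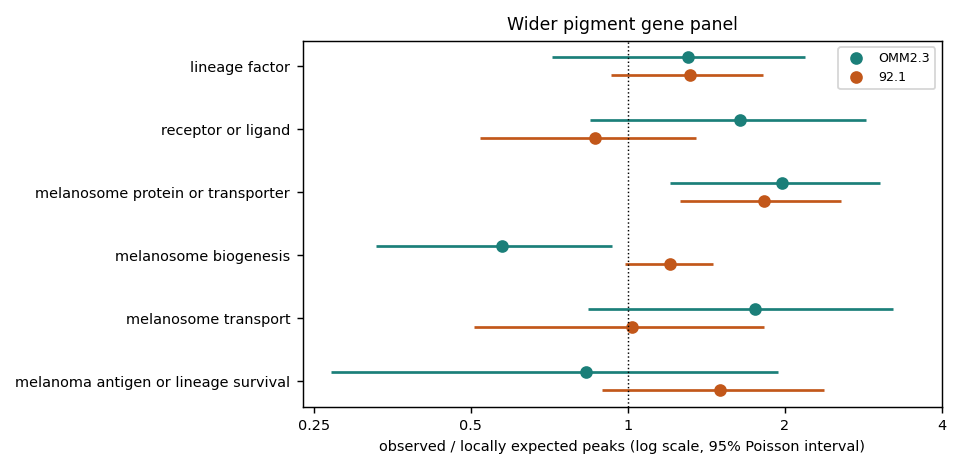
Ratio of observed to locally expected peaks (x axis, log scale) for the 46 panel genes by role, with 95% Poisson intervals that take the expected number as fixed, in OMM2.3 and 92.1. The interval of the melanosome protein and transporter group lies above 1 in both lines and that of the biogenesis group below 1 in OMM2.3, and each includes 1 once SLC24A4 or LYST is left out.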

How the data were processed

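ChIP-seq libraries for A3B and normal rabbit IgG were made from OMM2.3 and 92.1 cells, 4 samples in 4 groups of 1 library, grouped by their labels. The authors checked reads with FastQC 0.11.9, aligned them to GRCh38 with Bowtie2 2.2.5, used Sambamba to remove PCR duplicates, and called peaks against IgG at a p of 0.05 with MACS2 2.2.7.1. The notes also name deepTools 3.5.1 and ChIPseeker. Per the deposited lists, each peak has a score (10 times the −log10 p, cut to a whole number), a fold enrichment (a ratio with 1 added to both terms), a −log10 p-value, a −log10 q-value and the offset of its summit from its start. Library totals are not in the lists. A permissive p, without replicates, admits many shallow peaks, so peak numbers move with depth.

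Peaks were counted in gene bodies of GENCODE version 44. The local expectation was the summit density within 1 Mb on each side times the extended length plus the mean peak width less 1 base. Fragment numbers were recovered from fold enrichment and −log10 p within 0.002, for 99.9% of OMM2.3 peaks (scaling 0.867) and 99.97% of 92.1 peaks (scaling 1). Counts had exact Poisson intervals and shares exact binomial intervals, at 95%, which cover counting error only, since each group was 1 library. The fragments carry no molecular identifiers. Ratio intervals were those of the count divided by the expected number, taken as fixed unless stated. Counting and recovery were tested on simulated data.

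The members, the panel and the lists were chosen with earlier results of these data known. The rule for names was all 10 members, their highest peak, peaks within 3 kb of a start site, pairs shared by the lines, and panel genes whose interval excluded 1. Sequences followed the highest peak and the summit nearest a canonical start outside untranslated regions, and 2 more were added after the values were seen. Some sequences and positions are not reported here. Alternatives changed the extension (none, 10 kb), the overlap (summit inside), the threshold (p of 0.01 and 1e-05, q of 0.05), the flanks (500 kb, 2 Mb, whole chromosome, tiles of 200 bp with GC alike within 5 points), the start site width and the sharing rule. Leaving out repeated sequence, and SLC24A4 or LYST from their groups, was chosen after seeing the data. Scripts ran under Python 3.11.15 with pandas 2.3.3, matplotlib 3.10.9, scipy 1.17.1 and numpy 2.4.6.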

Additional observations from a re-analysis of the deposited data

Results flagged for a closer look

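MITF was picked out because its peak number relative to its neighbourhood differed between the lines: OMM2.3 had a ratio of observed to locally expected peaks of 0, and 92.1 had a ratio of 1.16. Each line had 1 A3B library, so that difference was not tested.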

How the results depend on the processing

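No paired analysis was possible because none of the results came from a test and every group was a single library. Of 54 alternative values for the main counts and ratios, 39 stayed within their tolerance and 15 moved. The 92.1 ratio of 1.02, whose interval holds 1, fell below 1 in 4 of 9 alternatives other than the 2 strictest thresholds. At a p of at most 1e-05 and at a q of at most 0.05, members with a peak and member peaks fell to 0 in both lines, and the ratio in 92.1 was 0. The OMM2.3 ratio could not be given there, because no flanking peak was left. At a p of at most 0.01, and with peaks in repeated sequence left out, OMM2.3 had 5 member peaks. With start sites within 1 kb, or canonical ones only, 0 members had a start site peak in OMM2.3. Allowing 1 kb between peaks, 2 OMM2.3 member peaks had a neighbour in 92.1. Under the other alternatives the OMM2.3 ratio lay between 0.419 and 0.737 and the 92.1 ratio between 0.878 and 1.13. The number expected at MITF lay between 5.53 and 7.76 for OMM2.3, and between 5.76 and 8.47 for 92.1, without the 2 strictest thresholds. Peaks of 3 to 7 fragments limit what can be read from single genes.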
